A study of Mus musculus with 18 samples.

Results

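The retina keeps its microglia, the resident macrophages of nervous tissue, under a set of signals that neurons and glia make and microglia read. Of the 55487 genes counted in this series, 10 that carry such signals are described here, taken by name: 7 ligands (Cx3cl1, Il34, Csf1, Tgfb1, Tgfb2, Cd200 and Cd47) and 3 receptors (Tgfbr1, Cd200r1 and Sirpa). All 10 were found in the count table under one Ensembl identifier each. Gene expression was measured by RNA sequencing in 18 libraries of flow-sorted mouse retinal cells. The sort used CD11b, a surface integrin subunit found on microglia and myeloid cells in general, and kept living cells by their lack of the dye DAPI. The CD11b-positive cells are called microglia here and the CD11b-negative cells retina. Knockout mice (KO), labelled Bmal1-mg/-mg, lacked the clock gene Bmal1 in microglia, and the control mice (WT) were Bmal1f/f, with both copies of the gene flanked by loxP sites. There were 5 KO and 4 WT libraries of microglia, and 5 KO and 4 WT libraries of retina. The mice's age, the Cre line that deletes Bmal1 and the number of animals behind a library are not given in the sources used here. The spread between libraries may therefore be partly technical.

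Fractalkine, the product of Cx3cl1, is made as a membrane-bound chemokine by neurons and is read by the receptor CX3CR1 on microglia. Colony-stimulating factor 1 and interleukin-34, from Csf1 and Il34, both bind CSF1R, on which microglia depend for survival. Transforming growth factor beta, from Tgfb1 and Tgfb2, is stored in a latent form and, once released, acts through the receptor pair of TGFBR2 and TGFBR1 to keep microglia in their homeostatic state. CD200 on neurons binds CD200R1, and CD47 on most cells binds SIRP-alpha, from Sirpa, and both pairs restrain macrophages.

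Libraries held 32277156 to 47563119 counts, so that 3 counts stood for 0.0631 to 0.0929 CPM, the count per 1000000 counts of a library. The microglia marker Tmem119 had 6260 to 7362 CPM in KO microglia and 5249 to 6936 in WT microglia. It had 0 to 0.0255 CPM in KO retina and 0 to 6.82 in WT retina. RNA of other retinal cells was present in the microglia libraries too, with a summed level of 20 rod genes of 6891 to 15667 CPM in KO and 9574 to 13807 in WT microglia. The genotypes also differed in what their libraries held. The number of genes with a count was 17343 to 18438 in KO microglia against 18654 to 19363 in WT microglia, and 18761 to 19713 in KO retina against 16510 to 18715 in WT retina. The summed level of the same rod genes was 145956 to 180819 CPM in KO retina and 184583 to 270596 in WT retina, again with no overlap. Arntl, the gene of BMAL1, averaged 13.6 ± 8.76 CPM in KO microglia and 18.5 ± 7.43 in WT microglia (SD, n = 5 and 4), a log2 change of -0.44 (SE 0.62, adjusted p = 0.999 by edgeR's quasi-likelihood test). In retina Arntl averaged 92.9 ± 18.2 CPM in KO and 116 ± 17.4 in WT (SD, n = 5 and 4). The log2 change there was -0.35 (SE 0.17, adjusted p = 0.39, edgeR). Counts of a whole gene need not show the loss of some of its exons, so these values do not check the labels.

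The 10 genes spanned a wide range of levels, and the order of levels was different in the 2 fractions. Set on a common scale of CPM per kilobase of exon, Sirpa stood highest in microglia, with 719 in KO and 789 in WT. Tgfbr1 followed with 212 and 258, Tgfb1 with 40.6 and 44.3, and Cd47 with 30.8 and 35.1 CPM per kilobase in KO and WT microglia. The 6 other genes were below 6 CPM per kilobase in the microglia of either genotype. In retina Sirpa was again highest, with 46.0 in KO and 43.4 in WT, and the ligands behind it were Cx3cl1 with 24.9 and 9.36, Tgfb2 with 14.1 and 5.86, and Cd47 with 12.8 and 12.95 CPM per kilobase in KO and WT. Cd200 had 6.07 and 3.86, Tgfbr1 4.23 and 2.82, Il34 1.56 and 0.497, and Csf1 0.520 and 0.857 CPM per kilobase in KO and WT retina. Tgfb1, with 0.0682 and 0.0812, and Cd200r1, with 0 in both, were last.

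**Figure D1:**
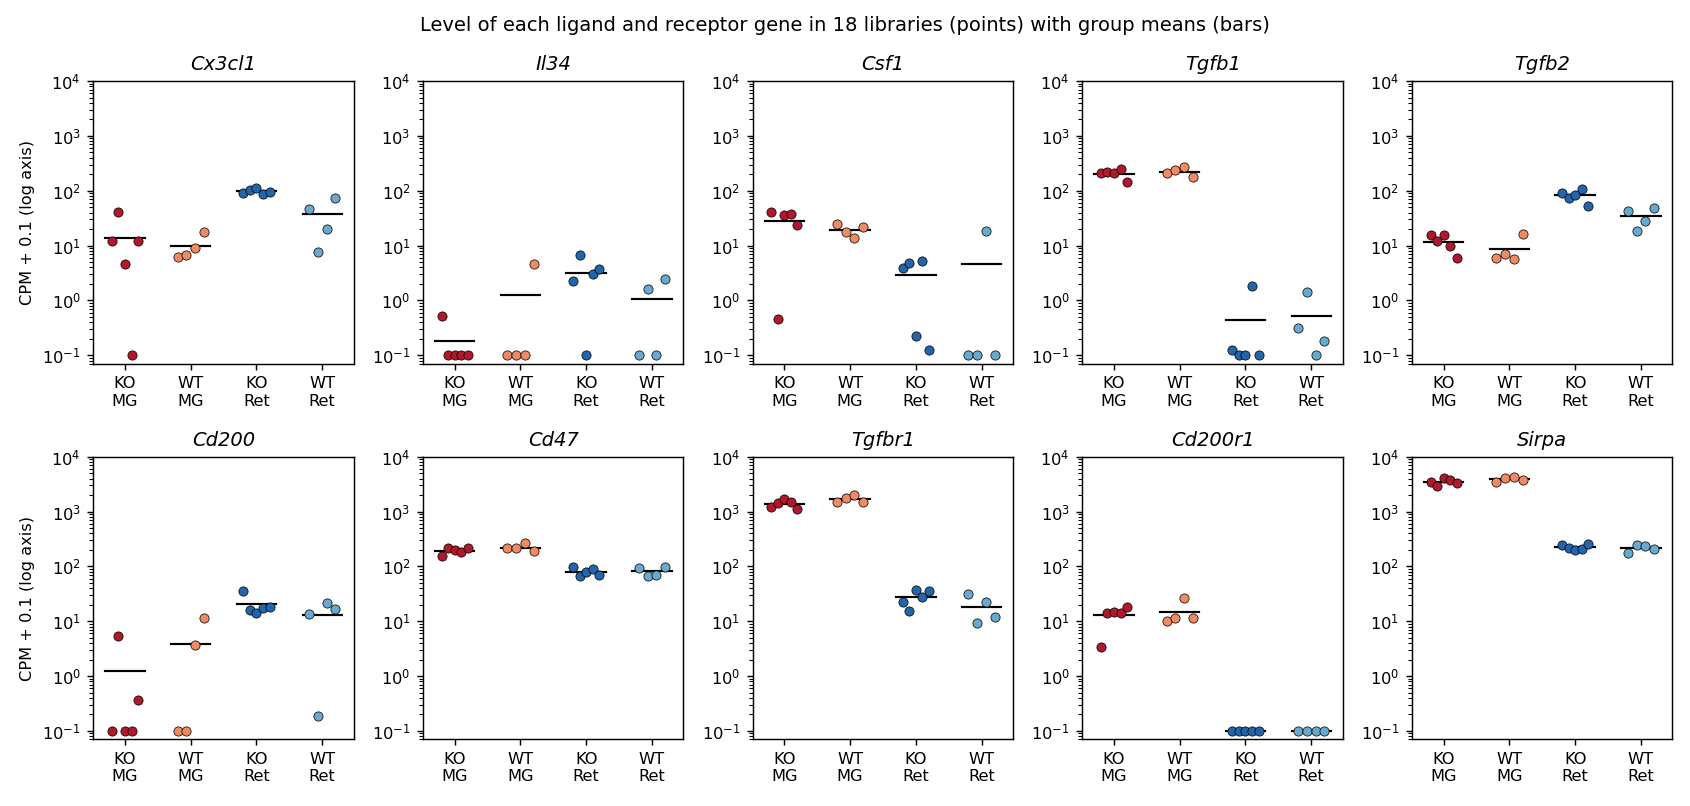
Level of the 7 ligand and 3 receptor genes in each of the 18 libraries, as CPM + 0.1 on a log axis, with KO and WT microglia (MG) on the left and KO and WT retina (Ret) on the right of each panel; points are libraries and bars are group means. Tgfb1, Tgfbr1, Sirpa and Cd200r1 stand higher in all 9 microglia libraries than in any retina library, Tgfb2 is higher in every retina library than in any microglia library, and Cx3cl1 and Tgfb2 are higher in all 5 KO retina libraries than in the 4 WT ones.

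The first comparison set microglia against retina within each genotype and asked in which fraction the RNA of each gene was higher. It was tested for 10 of the 10 genes in KO mice and 9 in WT mice, where Il34 did not pass the filter on low counts. In KO mice 8 genes passed the threshold of an adjusted p under 0.05, against 44.9% of all genes tested. Of these 5 were higher in microglia (23.7% of all genes) and 3 lower (21.2%). In WT mice 6 passed, against 40.2% of all genes tested, with 5 higher (22.8%) and 1 lower (17.4%). The median log2 difference of the 10 genes in KO was 2.21 and that of the 9 genes in WT 2.04, beside -0.10 and 0.02 over all genes tested. The libraries of the 2 fractions did not overlap for 8 genes in KO and for 6 in WT, beside 45.2% and 49.5% of all genes tested.

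All 3 receptors were on the microglial side. Sirpa (ENSMUSG00000037902, chromosome 2, 129592835 to 129632228, plus strand, GRCm38), whose product carries inhibitory motifs that recruit phosphatases, had 3519, 2949, 4049.7, 3759 and 3380.0 CPM in KO microglia and 249, 219, 197, 208 and 256 in KO retina. WT mice had 3444, 4044, 4184 and 3817 CPM of Sirpa in microglia and 173, 243, 233 and 205 in retina. Every microglia library stood above every retina library, by a log2 difference of 3.89 in KO (SE 0.13, adjusted p = 9.0e-09, edgeR) and 4.14 in WT (SE 0.16, adjusted p = 1.8e-06). Reads of the SIRP-beta genes, close copies of Sirpa, may be split between them in a way the sources used here do not state. The retina level of Sirpa was well above that of the microglia markers there. Tmem119 reached 0.0255 CPM in KO and 6.82 in WT retina, and 20 microglia genes summed to at most 24.8 and 29.9. Itgam had 0 CPM in all KO retina libraries and at most 0.0260 in WT retina, but it encodes CD11b, the marker of the sort itself.

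Tgfbr1 (ENSMUSG00000007613, chromosome 4, 47353222 to 47414931, plus strand), the signalling kinase of the TGF-beta receptor, had 1214, 1454, 1679, 1472 and 1107 CPM in KO microglia and 22.5, 15.2, 37.7, 27.8 and 35.1 in KO retina. In WT mice it had 1489.6, 1774, 2007 and 1482 CPM in microglia and 31.2, 9.10, 21.9 and 11.6 in retina. The fractions were far apart in both genotypes, with log2 differences of 5.57 in KO (SE 0.28, adjusted p = 1.5e-07, edgeR) and 6.47 in WT (SE 0.47, adjusted p = 2.5e-05). Cd200r1 (ENSMUSG00000022667, chromosome 16, 44765736 to 44794978, plus strand), the inhibitory receptor for CD200, was the scarcest receptor. It had 3.35, 13.7, 14.6, 13.8 and 18.04 CPM in KO microglia and 9.98, 11.5, 26.7 and 11.4 in WT microglia. All 9 retina libraries had 0 reads of it, against 2278 in KO and 2340 in WT microglia in all. Set against a floor of 3 counts over the group, Cd200r1 was at least 753-fold higher in microglia than in retina in KO mice and at least 798-fold higher in WT mice.

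Of the ligands, Tgfb1 and Cd47 were higher in microglia. Tgfb1 (ENSMUSG00000002603, chromosome 7, 25687002 to 25705077, plus strand) had 207, 218, 209.7, 244 and 146 CPM in KO microglia and 0.0256, 0, 0, 1.69 and 0 in KO retina. Its WT libraries had 209.8, 236, 271 and 177 CPM in microglia and 0.211, 1.34, 0 and 0.0827 in retina. The gene was therefore close to undetected in the CD11b-negative cells of either genotype, and its log2 difference between fractions was 9.13 in KO (SE 1.52, adjusted p = 0.00065, edgeR) and 9.09 in WT (SE 1.26, adjusted p = 0.00073). Cd47 (ENSMUSG00000055447, chromosome 16, 49800533 to 49915010, plus strand), the widely made signal against engulfment, had 154, 215, 198, 181 and 217 CPM in KO microglia and 95.8, 68.1, 77.3, 90.1 and 70.2 in KO retina. In WT mice it had 212, 214, 262 and 192 CPM in microglia and 92.5, 66.5, 69.0 and 97.2 in retina. This was the smallest of the differences past the threshold, with a log2 value of 1.19 in KO (SE 0.15, adjusted p = 8.5e-05, edgeR) and 1.39 in WT (SE 0.18, adjusted p = 0.00050).

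Tgfb2 was lower in microglia than in retina in both genotypes, so that the 2 TGF-beta ligands lay on opposite sides. Tgfb2 (ENSMUSG00000039239, chromosome 1, 186622792 to 186705989, minus strand) had 15.1, 12.3, 15.5, 9.89 and 5.86 CPM in KO microglia and 91.2, 72.4, 84.2, 109 and 51.6 in KO retina. In WT mice it had 5.88, 6.90, 5.54 and 15.9 CPM in microglia and 41.8, 18.1, 28.0 and 47.97 in retina. No microglia library reached any retina library of its genotype, and the log2 difference was -2.88 in KO (SE 0.32, adjusted p = 3.9e-05, edgeR) and -2.03 in WT (SE 0.48, adjusted p = 0.011). The antisense gene Gm29491 overlaps exons of Tgfb2 but had 145 counts over all libraries, and whether counting used strand is not given in the sources used here.

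Cx3cl1 (ENSMUSG00000031778, chromosome 8, 94772009 to 94782427, plus strand) was the ligand with the highest level per kilobase in KO retina. It had 11.9, 40.6, 4.51, 0 and 12.1 CPM in KO microglia and 90.7, 105, 112, 87.2 and 93.7 in KO retina. The KO libraries of the 2 fractions did not overlap, and the log2 difference was -2.90 (SE 1.07, adjusted p = 0.049, edgeR). In WT mice the values were 6.12, 6.66, 8.89 and 17.9 CPM in microglia and 46.1, 7.56, 19.6 and 73.9 in retina, with overlap and a log2 difference of -1.93 (SE 0.71, adjusted p = 0.062). Of the 10 fits each without 1 library, 8 lost the KO call, with an adjusted p up to 0.0996. In WT mice the difference passed without retina replicate 2 (adjusted p = 0.019) and with DESeq2 (adjusted p = 0.017).

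Cd200 was scarce in microglia, and Il34 was scarce in both fractions. Cd200 had its higher mean in retina in both genotypes. The mean of Il34 was higher in retina in KO mice, while in WT mice it was 1.14 CPM in microglia, all from 1 library, and 0.974 in retina. Cd200 (ENSMUSG00000022661, chromosome 16, 45382135 to 45409053, minus strand) had 0, 5.31, 0, 0 and 0.265 CPM in KO microglia and 35.3, 15.9, 14.3, 17.2 and 17.97 in KO retina. WT mice had 0, 0, 3.60 and 11.3 CPM in microglia and 13.6, 0.0840, 21.2 and 16.4 in retina. The KO fractions did not overlap, while in WT mice retina replicate 2 lay among the microglia libraries. The log2 difference of Cd200 did not pass in KO (-4.25, SE 1.76, adjusted p = 0.073, edgeR) or in WT (-1.82, SE 2.08, adjusted p = 0.52), but in KO it passed with limma voom (-7.89, adjusted p = 0.00031) and without microglia replicate 2 (-8.15, adjusted p = 0.0015). Il34 (ENSMUSG00000031750, chromosome 8, 110741829 to 110805924, minus strand) had 0.425, 0, 0, 0 and 0 CPM in KO microglia and 2.13, 6.59, 0, 2.91 and 3.66 in KO retina. In WT mice it had 0, 0, 0 and 4.55 CPM in microglia and 0, 1.54, 0 and 2.36 in retina. Its log2 difference in KO was -5.16 (SE 1.88, adjusted p = 0.046, edgeR), a call that was lost in 8 of the 10 fits without a library (adjusted p up to 0.091). The level of Il34 rested on a few libraries in every group but KO retina.

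Csf1 (ENSMUSG00000014599, chromosome 3, 107741048 to 107760469, minus strand) had 40.1, 0.360, 35.3, 38.1 and 23.3 CPM in KO microglia and 3.82, 4.71, 0.127, 5.06 and 0.0234 in KO retina. Its WT libraries had 25.1, 17.7, 13.4 and 21.4 CPM in microglia and 0, 0, 18.1 and 0 in retina. Most microglia libraries were therefore above the retina libraries of their genotype, with KO microglia replicate 2 and WT retina replicate 3 as the exceptions. The log2 difference was 3.24 in KO (SE 1.37, adjusted p = 0.077, edgeR) and 2.04 in WT (SE 2.20, adjusted p = 0.50), and without WT retina replicate 3 the WT difference was 12.65 with an adjusted p of 0.00031, where the remaining retina libraries had 0 reads and the fitted value is no bound. On all WT libraries limma voom gave 8.07 (SE 1.79, adjusted p = 0.0061). In KO mice the difference passed with DESeq2 (adjusted p = 0.016), and over all alternatives its adjusted p ran up to 0.19. Within microglia the receptor gene Csf1r was far above its ligand, with 2809.8 CPM per kilobase in KO against 5.20 for Csf1, and 3430.4 in WT against 3.67.

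**Figure D2:**
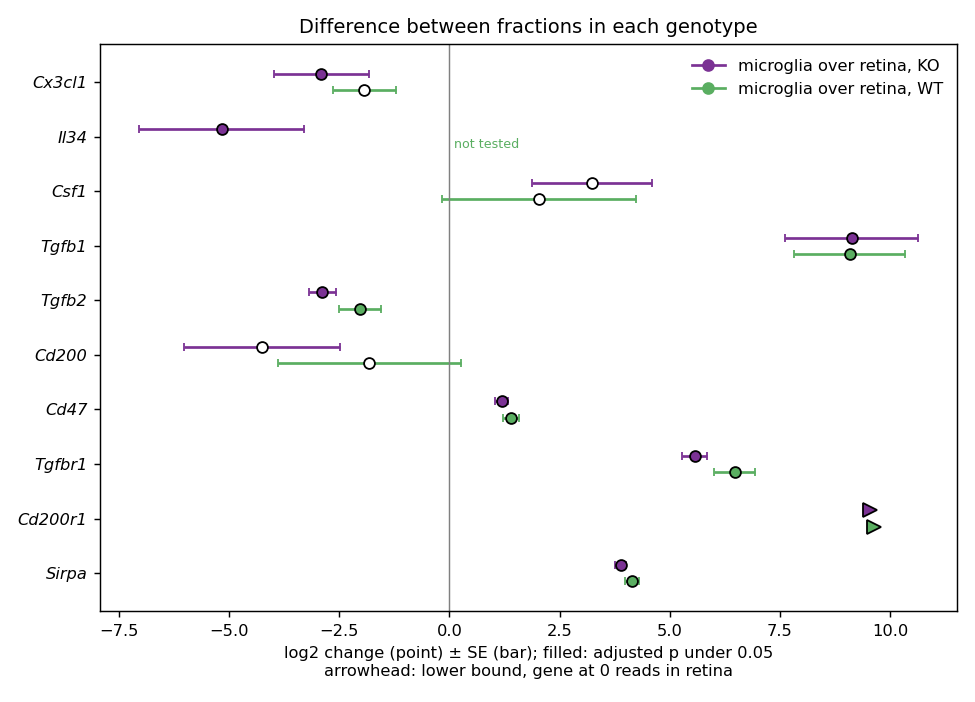
Log2 difference of microglia over retina for each gene (points) with its standard error (bars), in KO mice (purple, upper) and WT mice (green, lower); filled points passed an adjusted p of 0.05 and arrowheads are lower bounds for Cd200r1, which had 0 reads in retina. Tgfb1, Cd47, Tgfbr1, Cd200r1 and Sirpa lie to the right in both genotypes, and Tgfb2 to the left in both.

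The retinal ligands in the microglia libraries were measured beside the RNA of other retinal cells in the same libraries. The mean level in microglia was 14.2% of that in retina for Cx3cl1, 14.3% for Tgfb2 and 5.54% for Cd200 in KO mice, and 26.9%, 25.2% and 29.0% in WT mice. For the summed rod genes it was 6.88% in KO and 5.10% in WT, for 12 cone genes 9.33% and 19.9%, for 16 bipolar cell genes 8.32% and 22.1%, and for 14 amacrine cell genes 8.38% and 22.3%. Other lists had larger shares in KO and WT: retinal ganglion cells 75.0% and 63.0%, astrocytes 45.4% and 31.2%, endothelium 18.2% and 48.4%, and pericytes 23.9% and 34.7%. Summed horizontal cell genes averaged more in microglia, with 746 and 667 CPM in KO and WT, than in retina, with 289 and 280. So did pigment epithelium genes, with 8.53 and 5.97 CPM in KO and WT microglia and 1.86 and 3.44 in retina. The ganglion cell share rested mainly on Rbpms, which was higher in microglia. It averaged 34.7 and 35.4 CPM in KO and WT microglia, where the whole list summed to 50.8 and 47.9. In KO and WT retina it averaged 2.84 and 0.707 CPM, so this share is no measure of ganglion cell RNA. Summed Müller glia genes overlapped between the fractions, with 4209 to 6452 CPM in KO microglia and 3541 to 6824 in KO retina, and 2157 to 7394 in WT microglia and 1737 to 4502 in WT retina. Most single genes did not follow the sums. Of the 14 Müller glia genes, 10 were called lower and 1 higher in microglia in KO mice, with a median log2 difference of -2.76. In WT mice 7 were called lower and 1 higher, with a median of -1.49. Over all genes tested, 21.2% were called lower and 23.7% higher in KO, and 17.4% and 22.8% in WT. What part of the ligand reads in microglia libraries came from RNA of other retinal cells was not tested.

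The partner genes of each axis were taken from lists that leave out the 10 genes. Over all genes tested, 23.7% were called higher and 21.2% lower in microglia in KO mice, and 22.8% higher and 17.4% lower in WT mice. In the fractalkine list (the receptor Cx3cr1, the sheddases Adam10 and Adam17, the protease Ctss, and Gnai2 and Gnai3, which encode G-protein subunits) all 6 were higher in microglia in both genotypes. In the list around CSF1R 6 of 7 tested were higher in each genotype. Of the TGF-beta list, 20 of 30 tested genes were higher and 3 lower in microglia in KO mice, and 17 of 29 were higher and 0 lower in WT mice. The CD200 list had 3 of 3 higher in KO and 3 of 4 in WT, and the list around CD47 and SIRP-alpha 5 of 8 and 7 of 9. Of other ligands with receptors on microglia, 11 of 16 tested were higher and 1 lower in KO, and 11 of 17 higher and 1 lower in WT.

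The second comparison asked how the genes differed between KO and WT retina. By the genotype label these cells keep Bmal1 but surround microglia that lack it. No gene among the 8 tested passed the threshold with edgeR, against 1.66% of all genes tested. At an unadjusted p under 0.05 there were 2, Cx3cl1 and Tgfb2, beside 14.2% of all genes. These were also the 2 genes whose KO libraries all stood above the WT libraries, which 6.02% of all genes did. DESeq2 called 1 of the 8 (Tgfb2) and 7.72% of all genes, and limma voom 0 and 2.37%. The median log2 change of the 8 was 0.58, with 6 of 8 positive, beside 0.0028 over all genes, of which 50.2% were positive.

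Cx3cl1 averaged 97.7 ± 10.4 CPM in KO retina and 36.8 ± 29.5 in WT retina (SD, n = 5 and 4). The 5 KO libraries lay within 87.2 to 112 CPM, while the WT libraries ran from 7.56 to 73.9. The log2 change was 1.36 (SE 0.54, adjusted p = 0.27, edgeR), and Cx3cl1 did not pass with DESeq2 (adjusted p = 0.065) or limma voom (adjusted p = 0.096). Tgfb2 averaged 81.7 ± 21.5 CPM in KO retina and 34.0 ± 13.5 in WT retina (SD, n = 5 and 4). Its log2 change was 1.22 (SE 0.31, adjusted p = 0.097, edgeR), and the gap between the lowest KO library, at 51.6 CPM, and the highest WT library, at 47.97, was small. DESeq2 gave Tgfb2 an adjusted p of 0.0031 and limma voom 0.078. Over all alternatives the adjusted p ran between 0.065 and 1 for Cx3cl1 and between 0.0031 and 1 for Tgfb2. The authors' deposited table lists both genes past the threshold, with log2 changes of 1.35 (adjusted p = 0.042) for Cx3cl1 and 1.21 (adjusted p = 0.0041) for Tgfb2. Its p-values stand beside a likelihood-ratio score and not the quasi-likelihood test used here, so these calls are not like for like.

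In bulk libraries, a smaller share of cells of a type and less RNA per cell cannot be told apart. Within WT retina, the order of both Cx3cl1 and Tgfb2 over the 4 libraries was the reverse of that of the summed rod level: replicate 4 had the least rod RNA, 184583 CPM, and the most of both ligands, and replicate 2 the most rod RNA, 270596 CPM, and the least of both. The KO libraries did not keep this order: replicate 4 had the least rod RNA, 145956 CPM, the least Cx3cl1 and the most Tgfb2, and replicate 2 the most rod RNA, 180819 CPM, with 105 CPM of Cx3cl1. The summed bipolar cell level was 2191 to 3878 CPM in KO retina and 532 to 1262 in WT retina, and the summed cone level 2891 to 6723 and 975 to 2113. Of 14 Müller glia genes all 14 had a positive log2 change, with 0 called by edgeR and 8 at an unadjusted p under 0.05, and a median of 0.75. Of 20 rod genes edgeR called 7 lower in KO retina, and 20 had an unadjusted p under 0.05. It called 7 of 16 bipolar cell genes and 4 of 12 cone genes higher, and 14 and 11 had an unadjusted p under 0.05. Over all genes tested 1.66% were called and 14.2% had an unadjusted p under 0.05. With the mean level of rod genes as a covariate, the KO over WT log2 change was -0.18 for Cx3cl1 (SE 0.83) and -0.10 for Tgfb2 (SE 0.41). With the count of detected genes as a covariate it was -0.10 for Cx3cl1 and 0.40 for Tgfb2. Neither the summed rod level nor the count of detected genes overlapped between KO and WT retina, so the genotype and these differences between libraries cannot be told apart. Without WT retina replicate 2, the library with the most rod RNA and the fewest genes with a count, the log2 changes were 1.04 for Cx3cl1 (adjusted p = 0.24) and 1.03 for Tgfb2 (adjusted p = 0.14).

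**Figure D3:**
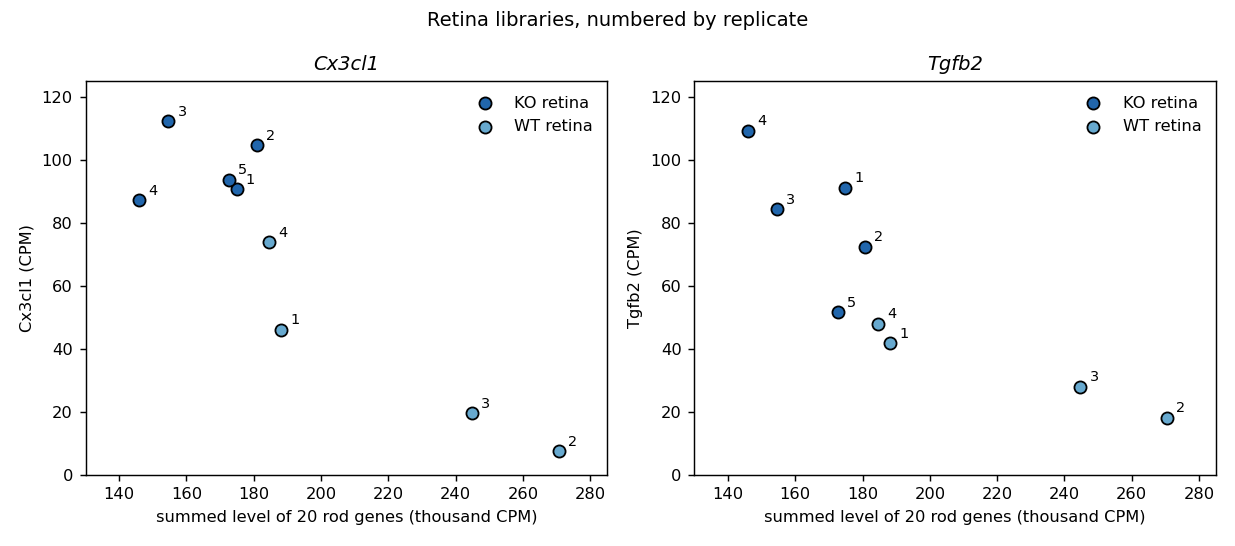
Level of Cx3cl1 (left) and Tgfb2 (right) in CPM against the summed level of 20 rod genes in units of 1000 CPM, for the 5 KO and 4 WT retina libraries, each numbered by its replicate. The KO libraries lie to the left of and above the WT libraries in both panels, and WT replicate 2 has the most rod RNA and the least of both ligands.

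The other 6 genes tested in retina did not reach an unadjusted p under 0.05. Their KO and WT libraries overlapped. Tgfbr1 averaged 27.7 ± 9.19 CPM in KO and 18.5 ± 10.1 in WT (log2 change 0.54, SE 0.42, adjusted p = 0.68), and Cd200 20.1 ± 8.61 in KO and 12.8 ± 9.04 in WT (0.61, SE 0.94, adjusted p = 0.87). The values of Cd47 and Sirpa were held most closely, with log2 changes of -0.060 (SE 0.17) and 0.044 (SE 0.13). Il34 had a log2 change of 1.61 with an SE of 1.87, and Csf1 of -0.76 with an SE of 2.25, which 1 WT library set: without WT retina replicate 3 all WT libraries had 0 reads of Csf1. Tgfb1 and Cd200r1 did not pass the filter on low counts.

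**Figure D4:**
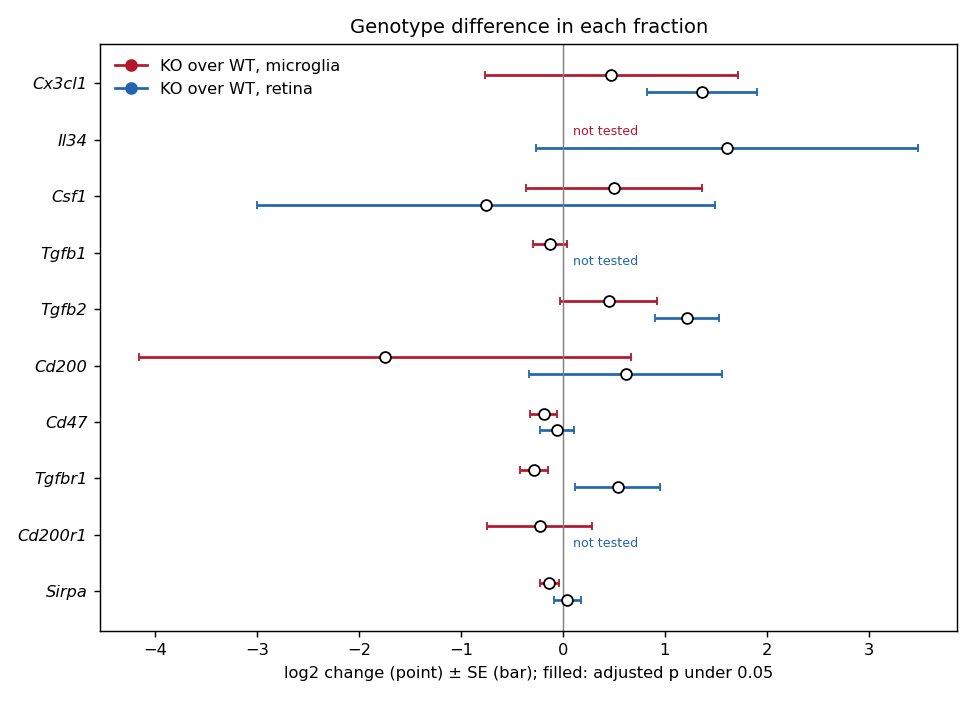
Log2 change of KO over WT for each gene (points) with its standard error (bars), in microglia (red, upper) and retina (blue, lower); open points did not pass an adjusted p of 0.05, and a filled point would have. The points of Cx3cl1 and Tgfb2 in retina lie farthest from 0 in units of their standard error, and all points are open.

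The promoters of Cx3cl1 and Tgfb2, whose KO retina libraries stood together above the WT ones, and of Tgfb1, whose reads came almost wholly from microglia, are shown for what these genes carry at their start. RefSeq windows on GRCm38.p6, from 250 bases before to 50 after a gene's start, were found for 7 of the 10 genes, all but Il34, Cd200r1 and Sirpa. Capitals mark matches on either strand to CACGTG, the E-box that BMAL1 with CLOCK binds, to GAGGAA, the core bound by the myeloid factor PU.1, or to TAATCC, a core bound by the photoreceptor factor CRX. No match shown overlaps another.
Cx3cl1, chr8:94771930-94772229, plus strand: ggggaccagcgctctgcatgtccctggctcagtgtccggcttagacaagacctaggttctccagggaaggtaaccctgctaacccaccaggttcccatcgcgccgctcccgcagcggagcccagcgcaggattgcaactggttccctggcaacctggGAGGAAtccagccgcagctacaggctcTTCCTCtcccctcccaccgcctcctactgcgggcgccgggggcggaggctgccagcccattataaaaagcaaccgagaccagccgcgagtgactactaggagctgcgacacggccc
Tgfb2, chr1:186705940-186706239, minus strand: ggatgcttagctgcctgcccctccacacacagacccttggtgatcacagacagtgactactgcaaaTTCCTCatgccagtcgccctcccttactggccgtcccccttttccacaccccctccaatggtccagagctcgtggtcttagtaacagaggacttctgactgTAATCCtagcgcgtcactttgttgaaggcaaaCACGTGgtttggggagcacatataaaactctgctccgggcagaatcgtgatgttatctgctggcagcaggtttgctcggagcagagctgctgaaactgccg
Tgfb1, chr7:25686752-25687051, plus strand: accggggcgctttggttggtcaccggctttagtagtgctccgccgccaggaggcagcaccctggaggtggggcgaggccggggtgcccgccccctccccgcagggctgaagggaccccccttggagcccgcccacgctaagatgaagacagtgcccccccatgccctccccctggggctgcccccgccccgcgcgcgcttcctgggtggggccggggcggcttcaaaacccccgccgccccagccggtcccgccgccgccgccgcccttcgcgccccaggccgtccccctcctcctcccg
The Tgfb2 window held 1 match to each motif, the Cx3cl1 window 2 to the PU.1 core and none to the others, and the Tgfb1 window, with 77.0% G and C, none. Over 32851 RefSeq windows of this length, 7.15% held CACGTG, 28.3% GAGGAA and 7.06% TAATCC. A match is a string of letters, not a measured binding site.

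The third comparison set KO against WT microglia, the cells that lost Bmal1 by the genotype label. No gene among the 9 tested passed the threshold with edgeR, DESeq2 or limma voom, against 0.115%, 1.6% and 0.175% of all genes tested, and 0 had an unadjusted p under 0.05, beside 5.76% of all genes. No gene had KO libraries that all lay on one side of the WT libraries, which 3.3% of all genes did. The median log2 change of the 9 was -0.13, with 3 of 9 positive, beside -0.0058 over all genes, of which 49.5% were positive.

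Among the receptors, Tgfbr1 averaged 1385 ± 226 CPM in KO microglia and 1688 ± 252 in WT microglia (SD, n = 5 and 4), and 4 of the 5 KO libraries were below all WT libraries. Its log2 change was -0.29 (SE 0.14, adjusted p = 0.89, edgeR). Sirpa averaged 3531 ± 413 CPM in KO and 3872 ± 323 in WT (-0.13, SE 0.096), and Cd200r1 12.7 ± 5.52 in KO and 14.9 ± 7.91 in WT (-0.23, SE 0.51). For these 2 genes and the 6 ligands tested the adjusted p was 0.999. Tgfb1 averaged 205 ± 36.1 CPM in KO and 224 ± 40.2 in WT, with a log2 change of -0.13 (SE 0.17). Cd47 averaged 193 ± 26.02 CPM in KO and 220.1 ± 29.4 in WT (-0.19, SE 0.13), and Csf1 27.4 ± 16.5 in KO and 19.4 ± 5.02 in WT (0.50, SE 0.86). In Csf1 3 KO libraries were above all WT libraries and 1, replicate 2 at 0.360 CPM, below them. The retinal ligands in these libraries had log2 changes of 0.47 for Cx3cl1 (SE 1.24), 0.45 for Tgfb2 (SE 0.48) and -1.75 for Cd200 (SE 2.41). Il34 did not pass the filter.

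Of the other receptors for these ligands, Cx3cr1 passed the threshold. Cx3cr1, the fractalkine receptor, averaged 3149 ± 209 CPM in KO microglia, against 6299 ± 223 in WT microglia (SD, n = 5 and 4). The KO libraries ran from 2811 to 3311 CPM and the WT libraries from 5988 to 6516, and the log2 change was -1.001 (SE 0.060, adjusted p = 0.00012, edgeR). The call held in all 9 fits without a library, with DESeq2 and with limma voom, and was lost in the fit over all 18 libraries (adjusted p = 0.90). The Cre line is not given, so its part in this difference and that of Bmal1 loss cannot be told apart. Csf1r averaged 16224 ± 1073 CPM in KO and 19807 ± 1553 in WT (-0.29, SE 0.065, adjusted p = 0.24, edgeR). DESeq2 gave Csf1r an adjusted p of 0.015, and the authors' deposited table lists a log2 change of -0.31 with an adjusted p of 0.0055. Tgfbr2, the partner of Tgfbr1, averaged 1063 ± 244 CPM in KO and 1259 ± 106 in WT (-0.24, SE 0.16, adjusted p = 0.99). The summed level of 19 genes of border macrophages, monocytes and granulocytes was 234 to 716 CPM in KO microglia and 107 to 593 in WT microglia, beside 87022 to 94076 and 86354 to 94808 for 20 microglia genes; of these 19, Cd209f was at 0 in KO, and Cd209f, Mpo and Elane in WT microglia. Their part in these differences was not tested.

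The remaining partners in microglia did not pass. Over all genes tested in microglia, 49.5% were positive, 0.115% called by edgeR and 5.76% at an unadjusted p under 0.05. In the TGF-beta list 10 of 28 tested genes were positive, 0 called by edgeR and 2 at an unadjusted p under 0.05, with a median log2 change of -0.049. The latent TGF-beta binding protein gene Ltbp3 averaged 0.455 ± 0.204 CPM in KO microglia and 7.41 ± 7.87 in WT microglia (-4.01, SE 1.00, adjusted p = 0.31, edgeR; 0.0031 with DESeq2). Among other ligands, 14 of 17 were positive, 0 called by edgeR and 2 at an unadjusted p under 0.05. The cytokine gene Tnf averaged 12.3 ± 6.77 CPM in KO and 5.18 ± 1.84 in WT (1.25, SE 0.53, adjusted p = 0.85), and Gas6, which bridges dying cells to phagocytes, 616 ± 73.5 in KO and 466 ± 124.8 in WT (0.40, SE 0.17, adjusted p = 0.84). The lists around CSF1R, CD200 and CD47 had 7, 5 and 11 genes tested, of which edgeR called 0, and 1 gene, Csf1r, had an unadjusted p under 0.05. In them Ptpn11, which encodes the phosphatase SHP-2 that SIRP-alpha recruits, had a log2 change of 0.65 (SE 0.30), Ptpn6, for SHP-1, of -0.081 (SE 0.12), and Inpp5d, for the lipid phosphatase SHIP1, of -0.16 (SE 0.13). Spi1, the gene of PU.1, had 0.16 (SE 0.094), the adaptor genes Skap2 and Dok1 0.17 (SE 0.12) and 0.079 (SE 0.15), and the G-protein genes Gnai2 and Gnai3 0.074 (SE 0.086) and 0.037 (SE 0.23).

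In retina 21 of 27 tested genes of the TGF-beta list were positive, with a median log2 change of 0.83, 1 called higher by edgeR and 6 at an unadjusted p under 0.05. Over all genes tested 50.2% were positive, 1.66% called and 14.2% at an unadjusted p under 0.05. The 1 called was Itgb5, which encodes an integrin subunit that helps release latent TGF-beta. Itgb5 averaged 108 ± 33.5 CPM in KO retina and 46.6 ± 11.7 in WT retina (1.18, SE 0.24, adjusted p = 0.046, edgeR), and its KO libraries, from 80.4 to 167 CPM, did not overlap the WT libraries, from 36.2 to 63.3. The call was lost in 7 of 9 fits without a library, with adjusted p up to 0.12, and with either covariate (0.46 with the count of detected genes, 1.0 with the rod genes). Ltbp3 averaged 65.4 ± 29.3 CPM in KO retina and 21.7 ± 12.9 in WT retina (1.55, SE 0.48, adjusted p = 0.16; 0.015 with DESeq2). The signal transducer gene Smad2 averaged 38.8 ± 8.10 CPM in KO and 59.3 ± 4.48 in WT (-0.65, SE 0.18, adjusted p = 0.11; 0.021 with DESeq2). Tgfbr2 had a log2 change of 1.18 (SE 2.17).

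None of the other lists had a call by edgeR in retina, where 3 of their genes had an unadjusted p under 0.05. Ptprz1, a receptor phosphatase of glia that also binds interleukin-34, averaged 50.1 ± 3.53 CPM in KO retina and 9.74 ± 10.002 in WT retina (2.31, SE 0.74, adjusted p = 0.16, edgeR; 0.0095 with DESeq2 and 0.039 with limma voom). Gnai2 averaged 246 ± 82.0 CPM in KO and 113 ± 36.5 in WT (1.08, SE 0.28, adjusted p = 0.0997; 0.0024 with DESeq2). The neurotrophin gene Bdnf averaged 12.8 ± 4.89 CPM in KO and 4.25 ± 3.78 in WT (1.55, SE 0.66, adjusted p = 0.32). Gas6 had a log2 change of -0.18 (SE 0.15), Ptpn11 of 0.58 (SE 0.27), Ptpn6 of 0.67 (SE 0.47), and Rasa1, for a Ras inhibitor downstream of CD200R1, of -0.48 (SE 0.30).

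The difference between the genotype effects in microglia and in retina was tested in 1 model over all 18 libraries. None of the 10 genes passed, against 0.469% of all genes tested, and 0 had an unadjusted p under 0.05, beside 12.5% of all genes. DESeq2 and limma voom also called 0 of the 10 genes, and 5.92% and 0.8% of all genes. Cd200r1 had 0 reads in retina and so no genotype effect there to compare, and its test could not pass (SE 215). Tgfb1 had only 72 reads in KO and 63 in WT retina (SE 1.60). The test shares its libraries with the comparisons within each fraction. The largest in units of its error was Tgfbr1, with a log2 change of -0.87 (SE 0.44, adjusted p = 0.44, edgeR), from an effect below 0 in microglia and above 0 in retina. Tgfb2 had -0.81 (SE 0.54) and Cx3cl1 -0.92 (SE 1.36). Although both had an unadjusted p under 0.05 in retina and not in microglia, their effects were thus not shown to differ between the fractions.

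For each gene, the 3 genes most like it were taken from the fraction in which its WT mean was higher, by Pearson's r of log2(CPM + 1) over the 9 KO and WT libraries of that fraction. These values are descriptions over libraries that share their depth and makeup. Over retina libraries, Cx3cl1 was most like B3gat1 (r = 0.989), St6galnac4 (0.987) and Lamp5 (0.983) among 8313 genes. Tgfb2 was most like the cone opsin gene Opn1mw (0.984), Adrb1 (0.983) and the GABA transporter gene Slc6a11 (0.980), and Cd200 like Pgap2 (0.980), Smurf1 (0.970) and Harbi1 (0.967). For Cd200, WT retina replicate 2 at 0.0840 CPM weighs heavily in r, as every other retina library had at least 13.6. Opn1mw had 154 to 548 CPM in KO retina and 36.0 to 183 in WT retina.

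Over microglia libraries, among 8485 genes, Csf1 was most like Galc (0.981), Ifi47 (0.981) and Rhbdf1 (0.978), and Tgfb1 like Kctd12 (0.955), Fscn1 (0.946) and Smap2 (0.946). For Csf1, KO microglia replicate 2 at 0.360 CPM weighs heavily in r, as every other microglia library had at least 13.4. Sirpa was most like Lin54 (0.978), Mier3 (0.976) and Elmo1 (0.969), and Tgfbr1 like Qk (0.951), Ddx3x (0.929) and Dpp8 (0.926). Cd47 was most like Rgmb (0.959), Tab2 (0.932) and Pigk (0.930), and Cd200r1 like Pigk (0.943), Cep63 (0.923) and Ccnh (0.903), so that Pigk was near both. Il34 had reads in only 2 of the 9 microglia libraries, which set its nearest genes, Glb1l2 (0.873), Xrn2 (0.840) and Sra1 (0.839).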

How the data were processed

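RNA of sorted cells was extracted with a micro column kit, made into libraries with a low-input kit and sequenced as read pairs, per the labels' protocols. The submitters' processing notes name STAR 2.7.9a, featureCounts, edgeR, limma and the mouse build GRCm38. The authors deposited a table of read counts per gene with 55774 lines. After 287 repeated identifiers were dropped, 55487 genes remained, and 55141 of them matched GENCODE M21. The authors also deposited 2 tables of their own KO over WT comparisons, with log2 fold changes, a likelihood-ratio score (headed LR) and p-values per gene. Only the values credited to the authors were taken from these.

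The 10 genes, the partner lists and the marker lists were chosen with earlier results of these data known. Levels are CPM scaled by TMM factors over all 18 libraries. Differences were tested with edgeR 4.0.16 (quasi-likelihood test, filterByExpr, TMM) on the counts of the groups compared, in R 4.3.3, with Benjamini-Hochberg adjustment over all genes tested and a threshold of 0.05. The SE (standard error) given with edgeR values, also in the figures, was back-calculated. It is the absolute log2 change divided by the square root of the test's F statistic. The filter kept 14835 genes in microglia and 15332 in retina. The scripts were tested on simulated data. Alternatives were DESeq2 1.42.0, limma voom 3.58.1 (prior count 0.5), DESeq2's size factors, no filter, at least 1 CPM in 4 libraries, a replicate block, all 18 libraries in the fit, covariates, and leaving out each library.

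Partner genes were named if they passed in a genotype comparison, if they were Cx3cr1, Csf1r or Tgfbr2, or as up to 3 per axis with the smallest p; similar genes needed a mean of 10 CPM. Microglia and retina were sorted at the same time, per the labels, which do not say that a shared number marks 1 animal, so libraries were fitted as unpaired. No 2 libraries were identical, and Spearman's rank correlation within groups was 0.814 to 0.873. Floors and counts cover counting error only. Labels gave no batch. One item is not reported here.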

Additional observations from a re-analysis of the deposited data

Results flagged for a closer look

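Of 113 sets of libraries of 1 gene in 1 group, 20 held a library far above the rest of its group. The rule's chance rate of about 1 in 20 holds for values with a normal spread, which these CPM were not shown to have. Of the 20, 5 rested on 1 or 2 reads with 0 in the rest of the group, under the floor of 3 counts.

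Among the 10 genes, Il34 had 0.425 CPM in KO microglia replicate 1 and 4.55 in WT microglia replicate 4, with 0 in the other libraries of each group. Csf1 had 18.1 CPM in WT retina replicate 3 and 0 in the other WT retina libraries. Tgfb1 had 1.69 CPM in KO retina replicate 4, with at most 0.0256 in the others, and 1.34 in WT retina replicate 2, with at most 0.211 in the others. Tgfb2 had 15.9 CPM in WT microglia replicate 4, against 5.54 to 6.90 in the others, and the same library was the highest of its group for Cx3cl1, Cd200 and Il34. Cd200 had 5.31 CPM in KO microglia replicate 2, with at most 0.265 in the others, and 35.3 in KO retina replicate 1, against 14.3 to 17.97 in the others. Cd200r1 had 26.7 CPM in WT microglia replicate 3, against 9.98 to 11.5 in the others.

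Among partner genes in retina, KO replicate 4 stood apart for Itgb5 at 167 CPM, against 80.4 to 102 in the others, and for Inpp5d at 1.22. Other KO retina libraries stood apart for Gnai3 (replicate 5, 40.1 CPM) and Tgfbr2 (replicate 3, 25.0 CPM). WT retina libraries did so for Rasa1 (replicate 4, 76.4 CPM) and Cx3cr1 (replicate 2, 2.02 CPM). The 5 values under the floor were single reads of Spi1 in KO retina replicate 4 (0.0239 CPM), Dok1 in KO replicate 2 (0.0215 CPM) and Tnf in KO replicate 5 (0.0234 CPM), and 2 reads each of Spi1 in WT replicate 3 (0.0521 CPM) and Dok1 in WT replicate 4 (0.0413 CPM). Nothing can be read from these.

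The KO over WT effect on Ltbp3 differed between the fractions. The log2 difference, microglia minus retina, was -5.60 (SE 1.10, adjusted p = 0.032, edgeR), with 0.455 and 7.41 CPM in KO and WT microglia and 65.4 and 21.7 in KO and WT retina. The call was lost with limma voom (adjusted p = 0.17) and in 6 of the 18 fits without a library (up to 0.071).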

How the results depend on the processing

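Of 45 pairs of a gene among the 10 and a comparison, 27 kept their direction and side of the threshold in every alternative run. The pair of Cd200r1 and the difference between fractions was left out of the 45. With other scaling by DESeq2's size factors 0 of 40 group levels moved by more than 1 SD. Between KO and WT microglia 17 genes were called, against 8 with no filter, 237 with DESeq2, 26 with limma voom, 32 with all 18 libraries in the fit, 5 with the count of detected genes as a covariate and 4 to 21 without 1 library. Between KO and WT retina 255 were called, against 120 with no filter, 1184 with DESeq2, 2 with the count of detected genes as a covariate, 0 with the rod genes as a covariate and 96 to 342 without 1 library. DESeq2 called 1 of the 10 genes there. For the difference between fractions 85 were called, against 1074 with DESeq2, 145 with limma voom and 51 to 143 without 1 library. DESeq2 gave no adjusted p for 4 values of the 10 genes.

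With the replicate block, 2 genes were called in microglia, 0 in retina and 9 for the difference. Same-numbered libraries share only a number as far as the labels say. Their deviations from the group means correlated at -0.11 to 0.013 between KO and WT microglia, 0.0068 to 0.088 between KO and WT retina, and -0.034 to 0.056 between the fractions of a genotype, where 9 of 18 libraries correlated best with their own number, out of 5 in KO and 4 in WT mice. The Y chromosome genes Ddx3y, Eif2s3y, Kdm5d and Uty had 0 CPM in replicate 1 of every group and more in all other libraries. Xist, a transcript of female cells, had 40.3 and 12.6 CPM in replicate 1 of KO microglia and retina, and 42.0 and 0.0766 in that of WT. These values do not settle whether a shared number marks 1 animal. With the block, the calls of Cx3cr1 in microglia (adjusted p = 0.12), Itgb5 in retina (0.14) and Ltbp3 for the difference (0.43) did not pass. Between the fractions of KO mice Cx3cl1 did not pass (0.069) and Cd200 did (0.035), and the block changed no other call of the genes tested between fractions. The block reversed the log2 change of Cx3cl1 in microglia (-0.37), Csf1 (8.15) and Sirpa (-0.0071) in retina, and the difference for Csf1 (-5.49).

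Other reversed log2 changes were those of genes not called. The cause was not tested. In microglia, limma voom gave -1.10 for Cx3cl1, -0.48 for Csf1, -0.017 for Gnai3 and -0.019 for Rasa1. The filter at 1 CPM gave -0.00977 for Rasa1. The count of detected genes as a covariate gave 1.91 for Cd200, -0.12 for Itgb5, -0.60 for Rasa1 and 2.698 for Bdnf. Without 1 library the ranges were -0.47 to 0.94 for Cx3cl1, -0.39 to 0.22 for Cd200r1, -0.20 to 0.14 for Gnai3, -0.0076 to 0.14 for Dok1, -0.11 to 0.17 for Rasa1 and -1.41 to 0.11 for Bdnf. In retina, limma voom gave 3.69 for Csf1. The count of detected genes gave -0.10 for Cx3cl1, 8.10 for Csf1, -0.034 for Gnai3 and 0.31 for Gas6. The rod genes as a covariate gave -0.18 for Cx3cl1, -0.10 for Tgfb2, 0.39 for Csf1, -0.16 for Gnai2, -2.67 for Tgfbr2, -0.031 for Ptpn6, -0.059 for Ptpn11 and 0.54 for Gas6. Without 1 library the ranges were -1.18 to 9.87 for Csf1, -0.14 to 0.056 for Cd47, -0.023 to 0.12 for Sirpa and -0.54 to 2.09 for Tgfbr2. For the difference, limma voom gave -4.15 for Csf1, and without 1 library the ranges were -10.15 to 3.15 for Il34, -9.29 to 1.65 for Csf1 and -1.83 to 5.33 for Tgfb1.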
